A study of Mus musculus with 23 samples.

Results

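The genes examined here encode the receptors, transporters, enzymes and scaffold proteins of synapses that use gamma-aminobutyric acid (GABA), the main inhibitory transmitter of the adult brain. They were chosen by name, as 27 genes among the 45706 gene identifiers of the count table, and comprise 10 subunits of GABA-A receptors, 4 genes of the GABA-B receptor, 4 of GABA transport and breakdown, 4 of the inhibitory scaffold, 3 of the GABARAP family and 2 chloride transporters. Every one of the 27 was found in the table, and 26 passed the filter on low counts, the exception being Gabre. RNA sequencing was done on dissected hippocampus of female mice that were either wild type at the insulin gene Ins2 (Ins2+/+, here WT, n = 12 libraries) or homozygous for its loss (Ins2-/-, here KO, n = 11 libraries). Neither age nor strain of the mice is given in the sources used here, and no treatment is named in the labels. The series title places the comparison in a study of brain insulin, learning and memory.

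GABA-A receptors are chloride channels built from several subunits, and the subunit makeup decides whether a receptor sits at synapses or outside them and which cells use it. GABA-B receptors are G protein-coupled dimers that act more slowly, on both sides of the synapse. In the hippocampus inhibition comes mostly from local interneurons, while the granule cells of the dentate gyrus and the pyramidal cells of the CA fields carry characteristic receptor subunits, and astrocytes clear and break down part of the released GABA.

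Library totals ran from 13792274 to 22953261 counts, and the deleted gene had 0 counts in the 11 KO libraries (at most 0.0156 CPM over their 192905917 counts, counting error only) and 26 counts spread over 7 of the 12 WT libraries. KO_8, the knockout library with the number 8, stands apart from the other 22. Its markers of dentate gyrus were below every other library for 8 of 9 genes, and those of CA1 and CA3 for 4 of 5 and 4 of 6, so for KO_8 the label hippocampus goes against most of the defining genes examined, none of which was at 0. Calb2 of the dentate gyrus list, which the thalamus and habenula list also holds, and Elavl2 of the CA3 list went the other way and were above every other library (230 and 129 CPM). All 12 hypothalamic markers were above every other library in KO_8, with a summed level of 1570 CPM (CPM are counts scaled to a fixed library total, here after TMM scaling) against 1.30 to 8.60 CPM elsewhere. Its thalamus and habenula score was also the highest, 5.21 against 3.20 to 4.34, with 5 of 8 markers above all others. Of that list, Nwd2 was below all others (16.5 CPM), and Prkcd and Zic1 were within their range. The oligodendrocyte precursor score of KO_8 was the highest too, 5.72 against 5.16 to 5.66. Only 1 of its 4 markers, Pdgfra, was above all others, and the rest were within their range. Its microglia score was the lowest, 4.96 against 5.06 to 5.62, with 2 of 5 markers below all others. The comparisons of KO with WT are therefore given with and without KO_8. Choroid plexus markers, from a tissue that lies within the brain's ventricles, averaged 5.61 to 8.35 log2 CPM in WT_14, WT_17, KO_2, KO_6 and KO_12, and 0.25 to 2.46 in the other 18 libraries. The labels do not say which libraries came from which animals, so p-values measure the spread between libraries. In bulk tissue, fewer cells of a type and less RNA per cell cannot be told apart.

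Per kilobase of exon, the autophagy-linked Gabarapl1 was the most abundant of the 27 genes in the 22 libraries without KO_8. Its median was 250 RPKM (CPM divided by exon length in kilobases, range 224 to 271). A gene on the opposite strand, 1700101I11Rik, overlaps 28.3% of its exons and had a mean of 11 counts, so its values are uncertain to that extent. Gabbr1, which encodes the GABA-binding subunit of the GABA-B receptor, followed at 80.7 RPKM (67.3 to 87.6), and its range did not meet that of Gabarapl1. Slc12a5 (61.8 RPKM), Gabra5 (60), Gabarapl2 (57.6) and Gabarap (56.9) came next, with ranges that overlapped one another. Among the GABA-A subunits, Gabra5 stood highest, at 49.7 to 81.7 RPKM, above the whole range of each of the other 9 subunits listed. The order below it was Gabra2 (21.1 RPKM), Gabrb1 (17.5), Gabra4 (17.2), Gabrb2 (12.7), Gabra3 (11.6), Gabrd (8.36), Gabrg1 (3.09) and Gabrg3 (1.55), and Gabre, at a median of 0.0472 RPKM, was the lowest of the 27. Neighbours in this order overlapped in range from Gabra2 down to Gabrd. Gabrg1 (at most 6.52 RPKM) did not reach Gabrd (at least 6.72), and Gabrg3 (at most 2.08) did not reach Gabrg1 (at least 2.36).

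**Figure D1:**
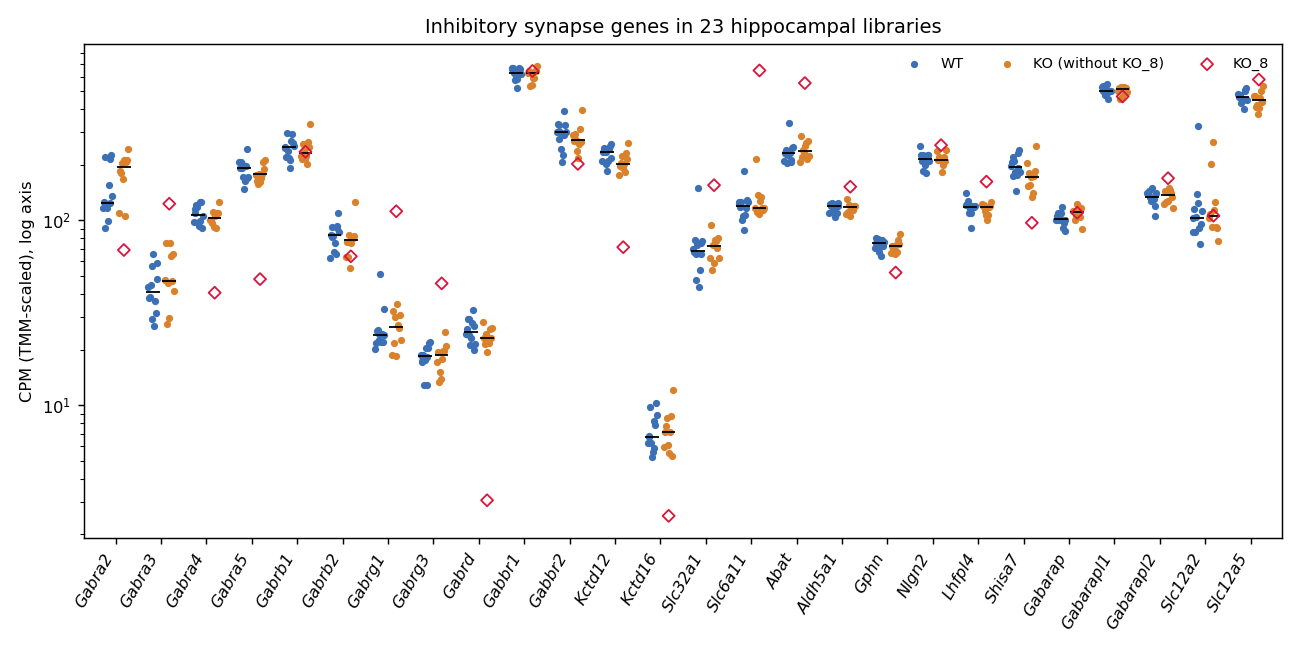
Level of 26 of the 27 genes in each library, in CPM on a log axis, with WT libraries in blue, KO libraries in orange, KO_8 as an open diamond and the median of each group without KO_8 as a bar. WT and KO libraries overlap for every gene plotted, while KO_8 lies far below the rest for Gabrd (3.06 CPM) and far above for Slc6a11 (647 CPM). Gabre, at 0 in some libraries, is left out.

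The comparison of KO with WT asked whether loss of Ins2 altered the inhibitory synapse genes. None of the 26 tested genes passed the threshold with KO_8 in the fit or without it (edgeR quasi-likelihood test, Benjamini-Hochberg adjusted p below 0.05 over all genes tested; smallest adjusted p among the 26, 0.782 with and 0.967 without KO_8). Over all genes, 0.0126% were called with KO_8 and likewise 0.0126% without it. DESeq2 and limma voom also called 0 of the 26. At an unadjusted p below 0.05, edgeR had 2 of the 26, Slc6a11 and Gabra3, against 5.74% of all tested genes, DESeq2 had 1 (6.17% of all genes) and voom 4 (17.4%). Without KO_8 the count was 0 of 26, against 4.1% of all tested genes. It was also 0 without any 1 of WT_1, WT_3, WT_5, WT_10, WT_11, WT_19, WT_20, WT_23 or KO_4, and 6 without KO_22, where 11.3% of all tested genes had such a p. WT and KO ranges overlapped for all 27 genes in both versions, and 2 of 15828 tested genes had ranges that did not. The median log2 fold change of KO over WT was 0.003 over the 26 genes and 0.003 over all tested genes, with 13 of the 26 above 0 and 13 below. Without KO_8 the median was -0.008 over the 26, with 11 above 0 and the rest at or below it, and 0.003 over all genes.

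The precision of these estimates differed between genes. For edgeR the standard error was taken as the size of the estimate divided by the square root of its F statistic, so it is approximate. Standard errors of the log2 fold change ran from 0.0383 to 0.26 with KO_8, with a median of 0.115, and the median fell to 0.0765 without it. The fold changes themselves spanned -0.23 to 0.55 with KO_8 and -0.16 to 0.34 without. In 20 of the 26 genes the estimate was smaller in size without KO_8, and in 20 it moved by more than 1.5 times. Kctd16, Slc32a1 and Lhfpl4 changed sign.

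**Figure D2:**
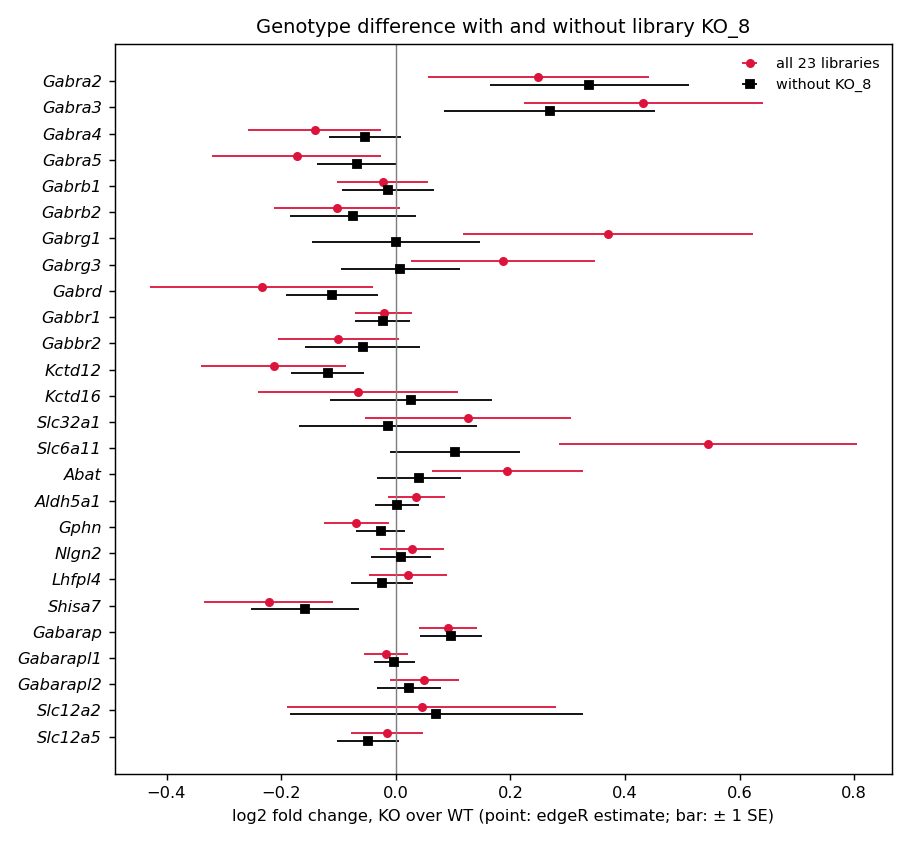
Log2 fold change of KO over WT for the 26 tested genes, with points for the edgeR estimate and bars for 1 standard error, from all 23 libraries (red circles) and without KO_8 (black squares). The estimates of Slc6a11 (0.55 against 0.10) and Gabrg1 (0.37 against 0) move most when KO_8 is left out, and no gene passes the adjusted threshold in either fit.

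The GABA-A subunits showed no common direction. Of 9 tested subunits, 4 had a fold change above 0 and 5 below 0, and 0 passed the threshold. Gabra3 encodes an alpha subunit known from the thalamic reticular nucleus and from monoaminergic cells. It ran from 26.8 to 65.8 CPM in WT (median 41.0; mean 43.2 ± 12.3, SD, n = 12) and from 27.5 to 75.1 CPM in the 10 other KO libraries (median 47.0; 51.8 ± 17.3, SD, n = 10), with 123 CPM in KO_8. The groups overlapped over most of their range. Its log2 fold change was 0.43 (SE 0.209, edgeR unadjusted p = 0.0496, adjusted p = 0.782) and fell to 0.27 (SE 0.184, edgeR adjusted p = 0.967) without KO_8. It was 0.44 (SE 0.165, edgeR adjusted p = 0.576) without KO_8 and the 5 libraries rich in choroid plexus markers.

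Gabra2 encodes an alpha subunit enriched at the axon initial segment of pyramidal cells, and its coefficient of variation over the 22 libraries, 30.4%, was close to the 31.9% of Gabra3 and above the 10.9% and 12.2% of Gabra4 and Gabra5. WT libraries held 91.0 to 225 CPM (median 124) and the 10 other KO libraries 105 to 244 CPM (median 195). Along this range, 9 of 12 WT libraries lay between 91.0 and 155 CPM and 3 between 215 and 225 CPM, whereas 2 of the 10 KO libraries lay at 105 and 110 CPM and 8 between 168 and 244 CPM. This split at 160 CPM was chosen after the values were seen. At the widest gap on the log scale, from 135 to 155 CPM, 4 WT and 8 KO libraries lay above it, and the groups overlapped from 105 to 225 CPM. KO_8, at 69.1 CPM, was below all of them. Stretches of 205 bases of its transcript are 90.2% and 90.7% identical to transcripts of Rab3c and Shank1, which had means of 7051.3 and 6559.2 counts, so reads from those stretches are uncertain. The log2 fold change was 0.25 (SE 0.193, edgeR adjusted p = 0.791) with KO_8 and 0.34 (SE 0.174, edgeR unadjusted p = 0.0654, adjusted p = 0.967) without it, the largest of the 26 in the fit without KO_8.

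Gabra4 and Gabrd encode subunits that assemble into receptors outside the synapse on dentate granule cells, and Gabra5 encodes the subunit of extrasynaptic receptors on hippocampal pyramidal cells. Gabra4 ran from 91.1 to 125 CPM in WT (median 108) and from 91.1 to 126 CPM in KO without KO_8 (median 103). Gabrd ran from 19.8 to 32.9 CPM in WT (median 25.0) and from 19.3 to 28.2 CPM in KO without KO_8 (median 23.1). Gabra5 ran from 148 to 243 CPM in WT (median 192) and from 158 to 211 CPM in KO without KO_8 (median 177). In all 3 the genotypes overlapped almost entirely, with log2 fold changes of -0.14, -0.23 and -0.17 with KO_8 (SE 0.116, 0.195 and 0.148) and -0.05, -0.11 and -0.07 without it (SE 0.063, 0.0801 and 0.07). KO_8 was far below this, at 40.6 CPM for Gabra4, 3.06 CPM for Gabrd and 48.1 CPM for Gabra5.

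Gabrb1 and Gabrb2 encode beta subunits, present in most receptors, and had log2 fold changes of -0.02 and -0.10 with KO_8 and -0.01 (SE 0.08) and -0.07 (SE 0.11) without it. For Gabrb2, single libraries left out gave -0.19 (without KO_22) to -0.06 (without WT_23), neither called. Gabrg1, a gamma subunit used by some glial cells and by a few brain nuclei, had 20.2 to 51.3 CPM in WT, 18.5 to 35.1 CPM in KO without KO_8 and 112 CPM in KO_8. Gabrg3 had 12.8 to 22 CPM in WT, 13.4 to 24.9 CPM in KO without KO_8 and 45.6 CPM in KO_8. For both, the difference between genotypes rested on KO_8, as the log2 fold changes were 0.37 and 0.19 with it (SE 0.253 and 0.16) and 0 and 0.01 without (SE 0.147 and 0.104). Gabre, the epsilon subunit known from hypothalamus and brainstem, had 152 counts in total in the 22 other libraries, 0 counts in 3 of them, and 611 counts in KO_8, at 36.7 CPM against 0 to 2.60 CPM.

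A group of 4 of the subunit genes lies side by side on chromosome 5 within 1.40 Mb (GRCm38, GENCODE M21), in the order Gabrg1 (chr5:70751047-70842617), Gabra2 (chr5:70957597-71095849), Gabra4 (chr5:71569749-71658308) and Gabrb1 (chr5:71658113-72149037). The first 3 are on the minus strand and Gabrb1 is on the plus strand, so that Gabra4 and Gabrb1 overlap head to head, by 46 bases of exon, and counts in that stretch are uncertain. Their transcription starts in RefSeq are 387 bases apart. In KO_8 the 4 neighbours did not move together: Gabrg1 was at 4.63 times the median of the other 22 libraries, Gabra2 at 0.428 times, Gabra4 at 0.387 times and Gabrb1 at 0.969 times. Gabra4 was thus below the range of the others while Gabrb1, at 235 CPM, was within it.

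**Figure D3:**
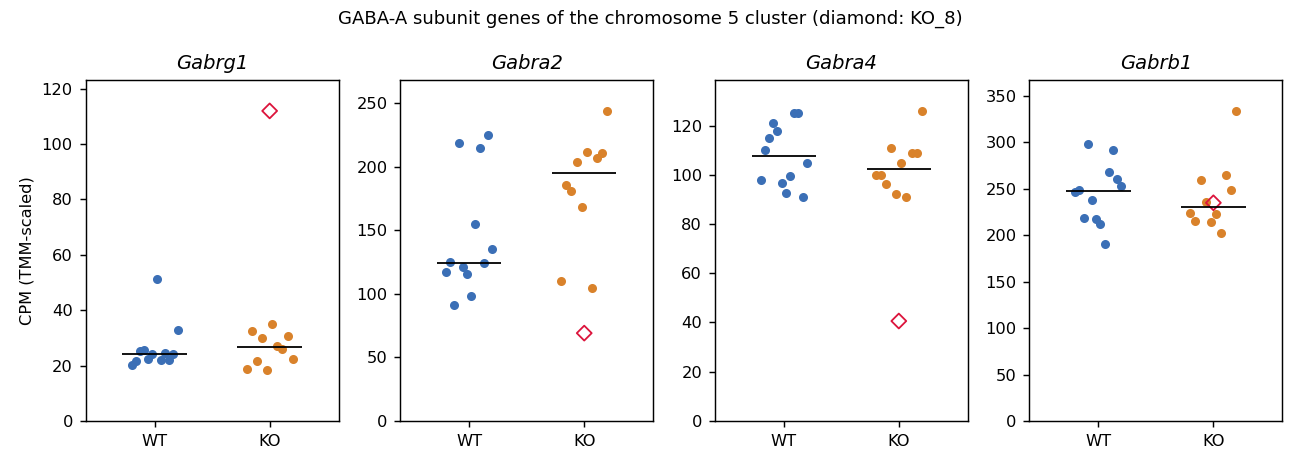
Level in CPM of the 4 neighbouring GABA-A subunit genes of chromosome 5 in each library, each panel on its own axis from 0, with WT in blue, KO in orange, the median without KO_8 as a bar and KO_8 as an open diamond. Gabra2 libraries spread from 91.0 to 244 CPM without KO_8, and KO_8 is high for Gabrg1, low for Gabra2 and Gabra4, and within the range for Gabrb1.

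The windows around the starts of Gabra4 and Gabrb1 are shown because these neighbours differ in KO_8, and those of Slc6a11 and Gabra5 because they had the largest rise and the largest fall there among tested genes with a window in the RefSeq table (GRCm38.p6; 250 bases before to 50 after the start, read 5′ to 3′ on the gene's strand). For Gabrb1 the first of its 2 windows is given. Capitals mark GC boxes, searched as GGGCGG on both strands.
Gabra4, chr5:71658259-71658558, minus strand: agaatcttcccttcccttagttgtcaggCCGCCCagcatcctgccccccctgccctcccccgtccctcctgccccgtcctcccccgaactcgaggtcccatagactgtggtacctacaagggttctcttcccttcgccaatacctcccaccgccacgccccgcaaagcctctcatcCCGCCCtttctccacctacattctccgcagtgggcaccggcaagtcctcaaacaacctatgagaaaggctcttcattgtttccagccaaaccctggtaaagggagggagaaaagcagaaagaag
Gabrb1, chr5:71657671-71657970, plus strand: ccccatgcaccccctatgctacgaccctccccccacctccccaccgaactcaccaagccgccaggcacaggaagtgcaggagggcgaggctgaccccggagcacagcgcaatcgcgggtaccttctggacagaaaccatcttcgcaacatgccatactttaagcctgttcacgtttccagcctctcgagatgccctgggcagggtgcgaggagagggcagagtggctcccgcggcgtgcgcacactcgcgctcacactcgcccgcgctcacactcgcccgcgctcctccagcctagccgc
Slc6a11, chr6:114130991-114131290, plus strand: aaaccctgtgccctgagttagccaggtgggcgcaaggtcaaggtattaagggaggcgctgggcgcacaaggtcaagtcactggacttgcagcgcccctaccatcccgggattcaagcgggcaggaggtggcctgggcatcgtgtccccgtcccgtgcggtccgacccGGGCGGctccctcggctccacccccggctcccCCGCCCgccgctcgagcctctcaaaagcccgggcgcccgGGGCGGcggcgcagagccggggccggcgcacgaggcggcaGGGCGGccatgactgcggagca
Gabra5, chr7:57510010-57510309, minus strand: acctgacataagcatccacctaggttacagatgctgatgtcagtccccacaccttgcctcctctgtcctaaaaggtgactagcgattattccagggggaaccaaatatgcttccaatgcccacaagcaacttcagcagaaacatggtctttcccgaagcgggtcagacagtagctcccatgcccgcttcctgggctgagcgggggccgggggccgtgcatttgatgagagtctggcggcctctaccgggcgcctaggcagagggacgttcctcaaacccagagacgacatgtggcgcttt

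Windows were matched by symbol for 23 of the 27 genes. The Gabra4 window held 2 GC boxes and the Slc6a11 window 4, while the Gabrb1 and Gabra5 windows held 0. A GC box was present in 17 of the 28 windows of these genes, Gabbr1, Gabbr2, Gphn, Nlgn2 and Slc12a5 among them, and in 35.7% of all 32851 windows of the table. A TATA box, searched as TATAAA on both strands, was found in 3 of the 28 windows, belonging to Gabra3 and Gabrb2, and in 13.6% of all windows. These are matches of letters, not sites shown to be bound.

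The GABA-B receptor genes had log2 fold changes below 0 in 4 of 4 with KO_8 and in 3 of 4 without, none past the threshold. Gabbr1 had 523 to 670 CPM in WT and 530 to 680 CPM in KO without KO_8, with 643 CPM in KO_8, and its log2 fold change of -0.02 carried one of the smaller errors (SE 0.0499 with KO_8). Gabbr2, whose product couples the dimer to G proteins, had 206 to 391 CPM in WT and 217 to 397 CPM in KO without KO_8, with 202 CPM in KO_8. The auxiliary subunits that shape the receptor's kinetics stood apart in KO_8. Kctd12 had 185 to 258 CPM in WT (median 234), 177 to 263 CPM in KO without KO_8 (median 203) and 71.6 CPM in KO_8, and its estimate of -0.21 (SE 0.126, edgeR adjusted p = 0.782) became -0.12 (SE 0.064, edgeR adjusted p = 0.967) without it. An antisense gene, Gm26778, overlaps 62.8% of its exons and had 0 counts. Kctd16 had 5.24 to 10.3 CPM in WT, 5.32 to 12.1 CPM in KO without KO_8 and 2.52 CPM in KO_8. Its log2 fold change turned from -0.07 to 0.03 (SE 0.141) without that library. An antisense gene with no count given, AC098707.1, overlaps 10.4% of its exons.

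All 4 genes of GABA transport and breakdown had log2 fold changes above 0 with KO_8, from 0.04 to 0.55, and from -0.01 to 0.10 without it. Slc6a11 encodes the astrocytic GABA transporter, abundant in hypothalamus and thalamus. WT libraries held 89.1 to 185 CPM (median 120; mean 121 ± 23.4, SD, n = 12), the 10 other KO libraries 108 to 214 CPM (median 117; 129 ± 31.2, SD, n = 10), and KO_8 647 CPM. The genotypes overlapped from 108 to 185 CPM, with KO_8 and KO_4 (214 CPM) above every WT library and WT_17, WT_11, WT_14 and WT_19 (89.1 to 107 CPM) below every KO library. Its log2 fold change, 0.55 with KO_8 (SE 0.26, edgeR unadjusted p = 0.0472, adjusted p = 0.782), was 0.10 without it (SE 0.113, edgeR adjusted p = 0.967).

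Slc32a1, which loads GABA into synaptic vesicles, had 43.4 to 149 CPM in WT (median 68.7) and 54.0 to 94.5 CPM in KO without KO_8 (median 72.4), with 155 CPM in KO_8. The 2 enzymes act in series to feed GABA carbon into the citric acid cycle. Abat, the GABA transaminase, had 205 to 336 CPM in WT, 208 to 286 CPM in KO without KO_8 and 553 CPM in KO_8. Its log2 fold change was 0.20 with KO_8 (SE 0.131, edgeR adjusted p = 0.782) and 0.04 without it (SE 0.0729, edgeR adjusted p = 0.969). Aldh5a1, which oxidises the resulting semialdehyde, was among the steadiest of the genes, at 104 to 124 CPM in WT, 106 to 130 CPM in KO without KO_8 and 152 CPM in KO_8. Part of the exons of Slc32a1 (24.9%) and of Aldh5a1 (14.1% and 3.6%) overlap antisense genes, which had means of 0, 18.9 and 65.0 counts, so these values are uncertain to that extent.

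Some libraries took the extremes of many of the 27 genes. The matching share over all tested genes was not computed, so the counts cannot be read as particular to these genes. KO_22, with the highest dentate gyrus score (6.14), was the highest of the 22 for 11 of the 27 genes. It also had the lowest astrocyte (6.53), oligodendrocyte (8.07), oligodendrocyte precursor (5.16) and microglia (5.06) scores of the 22, and their part in its values was not tested. WT_17, with the highest choroid plexus score, was the lowest for 9. The WT library with the number 15 was the highest of the 22 for Slc32a1 (149 CPM), Abat (336 CPM), Gabrg1 (51.3 CPM), Gabre (2.60 CPM), Gabarapl1 and Gabarapl2, the second highest for Slc6a11 (185 CPM), and the lowest for Gabra5 and Gabbr2. It also had the highest striatal marker score of the 23 libraries, a mean log2 CPM of 4.04 over 7 genes against 1.90 to 2.91 in the other WT libraries, and a thalamus and habenula score of 4.34. Its astrocyte score, 7.22, was the highest of the 23 libraries, and its interneuron score, 5.82, the highest of the WT libraries. The part of those tissues and cell types in these values was not tested. Without this library, and with KO_8 in the fit, the log2 fold change of Slc32a1 was 0.27 in place of 0.126. That of Abat was 0.25 in place of 0.195, and neither was called.

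Of the 4 scaffold and receptor partners, 2 had a log2 fold change above 0 and 2 below 0 with KO_8, and 1 and 3 without it, none past the threshold. Gphn encodes gephyrin, the postsynaptic scaffold of inhibitory synapses, and had 64.3 to 80.0 CPM in WT, 65.8 to 84.0 CPM in KO without KO_8 and 52.2 CPM in KO_8. Nlgn2, the adhesion protein of inhibitory synapses, had 180 to 252 CPM in WT, 183 to 241 CPM in KO without KO_8 and 255 CPM in KO_8. Lhfpl4, which anchors GABA-A receptors at the synapse, had 90.5 to 140 CPM in WT, 101 to 126 CPM in KO without KO_8 and 162 CPM in KO_8. Shisa7, another GABA-A receptor partner, had 145 to 239 CPM in WT (median 193) and 133 to 253 CPM in KO without KO_8 (median 172), with 97.0 CPM in KO_8. Its log2 fold change was -0.22 (SE 0.113, edgeR unadjusted p = 0.0604, adjusted p = 0.782) and -0.16 (SE 0.0946, edgeR adjusted p = 0.967) without KO_8, the most negative of the 26 in that fit, and voom gave it the smallest adjusted p of the 26, 0.151.

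Genes of the GABARAP family, small ubiquitin-like proteins of autophagy and receptor trafficking, varied little. Gabarap had 88.0 to 118 CPM in WT and 89.9 to 123 CPM in KO without KO_8, with a log2 fold change of 0.10 (SE 0.054) without it. Gabarapl1 had 454 to 546 CPM in WT and 451 to 528 CPM in KO without KO_8, and its coefficient of variation over the 22 libraries, 5.02%, was the lowest of the 27 genes, with Aldh5a1 next at 5.8%. Gabarapl2 had 105 to 150 CPM in WT, 116 to 149 CPM in KO without KO_8 and 169 CPM in KO_8. It has a processed copy, Gm3724, with a transcript 99.4% identical over 349 bases and a mean of 21 counts, so a share of its counts is uncertain.

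The chloride transporters set whether GABA excites or inhibits a cell. Slc12a5, the exporter of mature neurons, had 398 to 518 CPM in WT, 374 to 534 CPM in KO without KO_8 and 578 CPM in KO_8, with a log2 fold change of -0.05 (SE 0.0538) without KO_8. Slc12a2, the importer, which is also abundant in choroid plexus, had the widest relative spread of the 26 tested genes, with a coefficient of variation of 50.1% over the 22 libraries. Above the rest stood 3 libraries, WT_17 at 324 CPM, KO_12 at 265 CPM and KO_6 at 202 CPM, and these had the 3 highest choroid plexus scores, 8.35, 7.94 and 6.99. WT_14 (138 CPM) and KO_2 (103 CPM), with scores of 5.64 and 5.61, came close to the other 18 libraries, at 74.1 to 125 CPM. Without the 5 libraries the standard error of its log2 fold change was 0.10 in place of 0.234, and the fold change 0.01 (edgeR adjusted p = 0.969). Leaving out WT_17 alone gave 0.29 and leaving out KO_12 alone gave -0.13, neither called.

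KO_8 was outside the range of the other 22 libraries for 21 of the 27 genes, 12 above and 9 below. Over all tested genes, 22.1% were above and 23.6% below. By at least 1.5-fold, 6 of the 27 were above (Gabra3, Gabrg1, Gabrg3, Gabre, Slc6a11 and Abat) and 5 below (Gabra4, Gabra5, Gabrd, Kctd12 and Kctd16), against 5.5% and 7.58% of all tested genes. Relative to the median of the other libraries, Slc6a11 was at 5.51 times and Gabrd at 0.127 times. Gabrb1, Gabrb2, Gabbr1, Gabarap, Gabarapl1 and Slc12a2 were within the range. This is 1 library, so no test across samples applies, and its interneuron marker score, 5.33, was within the 5.25 to 6.06 of the others. Its single interneuron markers went both ways, with Gad2 above all other libraries, Pvalb, Lhx6 and Npy below all, and 4 of 8 within their range.

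The genes also differed in how they followed the makeup of the dissected tissue among the 22 other libraries. For each library, a dentate gyrus score and an interneuron score were taken as the mean log2 CPM of 9 and 8 marker genes, none of them among the 27, and 26 genes were set against each score, which makes 52 relations. The slope on the dentate gyrus score passed the threshold for 6 of 26 genes (edgeR, adjusted over all genes tested), and for 12.9% of all tested genes. It was positive for Gabra4, Gabrb1, Gabbr2, Kctd12 and Shisa7 and negative for Gabra3. For the interneuron score 8 of 26 passed, and 15.2% of all tested genes. The slope was positive for Gabra3, Gabrg1, Gabrg3, Slc32a1, Slc6a11, Abat and Gabarapl1 and negative for Slc12a2. Scores and genes come from the same libraries and share their scaling, and a larger share of 1 tissue lowers that of all others. The correlation between the 2 scores was not computed, so relations to 1 score cannot be taken as separate from those to the other. With KO_8 in the fit, 17 of 26 passed for the dentate gyrus score (33.6% of all tested genes) and 2 of 26 for the interneuron score (9.48%). Without KO_8 and the 5 choroid plexus libraries, 8 of 26 (16%) and 10 of 26 (17.3%) passed. For the dentate gyrus score Gabrd and Gphn were added to the 6. Leaving Calb2 out of the dentate gyrus score was an alternative chosen after seeing the data. With it left out, 10 of 26 passed over the 22 libraries (12.1% of all tested genes), 5 in each direction. Gabrb1 lost the call, with a slope of 0.33 (SE 0.112, edgeR adjusted p = 0.0532) against 0.41 (SE 0.115) before. Gabrd entered as positive, and Gabrg1, Slc32a1, Slc6a11 and Abat as negative. For the interneuron score without KO_8 and the choroid plexus libraries the split went from 7 positive and 1 negative to 5 and 5: Gabrg1 (slope 1.08, SE 0.402, against 0.94, SE 0.273, before), Gabrg3 (0.49 against 0.79), Gabarapl1 (0.19 against 0.27) and Slc12a2 no longer passed, Gabarap entered as positive, and Gabra4, Gabrb1, Gabbr2, Kctd12 and Shisa7 as negative. On ranks, tested with limma over all genes of the 22 libraries, 5 of 26 passed for dentate gyrus (8.14% of all tested genes), where Gabrb1 (adjusted p = 0.0884) and Gabbr2 (0.0622) lost the call and Slc32a1 gained a negative one (0.0459). For interneurons 7 of 26 passed (11.2% of all tested genes), all 7 positive, where Gabrg3 (limma adjusted p = 0.102) and Slc12a2 (0.93) lost the call and Gabarapl2 gained it (0.0233). WT_17, KO_6 and KO_12, with the 3 highest choroid plexus scores, were also among the 4 libraries with the lowest interneuron scores without KO_8, at 5.25, 5.26 and 5.39, and their part in these relations beyond the fit without them was not tested.

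Gabra3 had the closest relation to the interneuron score, with r = 0.92 (permutation p = 1e-05, the smallest that 100000 permutations can give) and rho = 0.92 (permutation p = 1e-05). The edgeR slope was 1.93 on the log2 scale per unit of score (SE 0.175, adjusted p = 1.05e-06). It held within WT (r = 0.84) and within KO (r = 0.97), and without the 2 libraries farthest from the median score, WT_17 and KO_6 (r = 0.90). With KO_8 it no longer passed (slope 0.86, SE 0.45, edgeR adjusted p = 0.244, with r = 0.55 and rho = 0.72). Slc32a1 had r = 0.75 (permutation p = 2e-05) and rho = 0.89 (permutation p = 1e-05), with r = 0.66 without those 2 libraries, 0.82 within WT and 0.91 within KO. With KO_8 its r was 0.40, its rho 0.69 (permutation p = 0.00032), and the slope did not pass (edgeR adjusted p = 0.428). Gabarapl1 had r = 0.84 (permutation p = 2e-05) and rho = 0.77 (permutation p = 4e-05), with 0.74, 0.86 and 0.93 in the same order, although its slope was shallow, at 0.27 (SE 0.0597). The negative relation of Slc12a2 (r = -0.49, permutation p = 0.0199; rho = 0.04, permutation p = 0.853) rests on WT_17 and KO_6, without which r was -0.10. Without KO_8 and all 5 choroid plexus libraries its direction turned, with r = 0.49, rho = 0.61 and a slope of 0.59 in place of -1.41 (SE 0.25, edgeR adjusted p = 0.106).

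By r, Shisa7 and Gabra4 had the closest positive relations to the dentate gyrus score, whereas by rho these were Gabra4 (0.69) and Kctd12 (0.68). Shisa7 had r = 0.73 (permutation p = 0.00011) and rho = 0.67 (permutation p = 0.00092), with r = 0.63 without KO_16 and KO_22, the libraries farthest from the median score, and r = 0.51 within WT and 0.81 within KO. KO_16 and KO_22, the lowest and highest in dentate gyrus score, were also the highest (9.44) and lowest (8.07) in oligodendrocyte score, whose part in these relations was not tested. Gabra4 had r = 0.73 (permutation p = 0.00015) and rho = 0.69 (permutation p = 0.0006), with r = 0.66 without those 2 libraries, 0.90 within WT and 0.58 within KO. Gabrd, the granule cell partner of Gabra4, had r = 0.49 (permutation p = 0.0202) and rho = 0.49 (permutation p = 0.0215), and its slope did not pass (0.34, SE 0.132, edgeR adjusted p = 0.0855) but did with Calb2 left out of the score (0.39, SE 0.109, edgeR adjusted p = 0.0204). Gabra2 followed neither score, with r = 0.13 (permutation p = 0.548; rho = 0.16, permutation p = 0.48) for dentate gyrus and r = -0.12 (permutation p = 0.603; rho = -0.21, permutation p = 0.358) for interneurons.

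**Figure D4:**
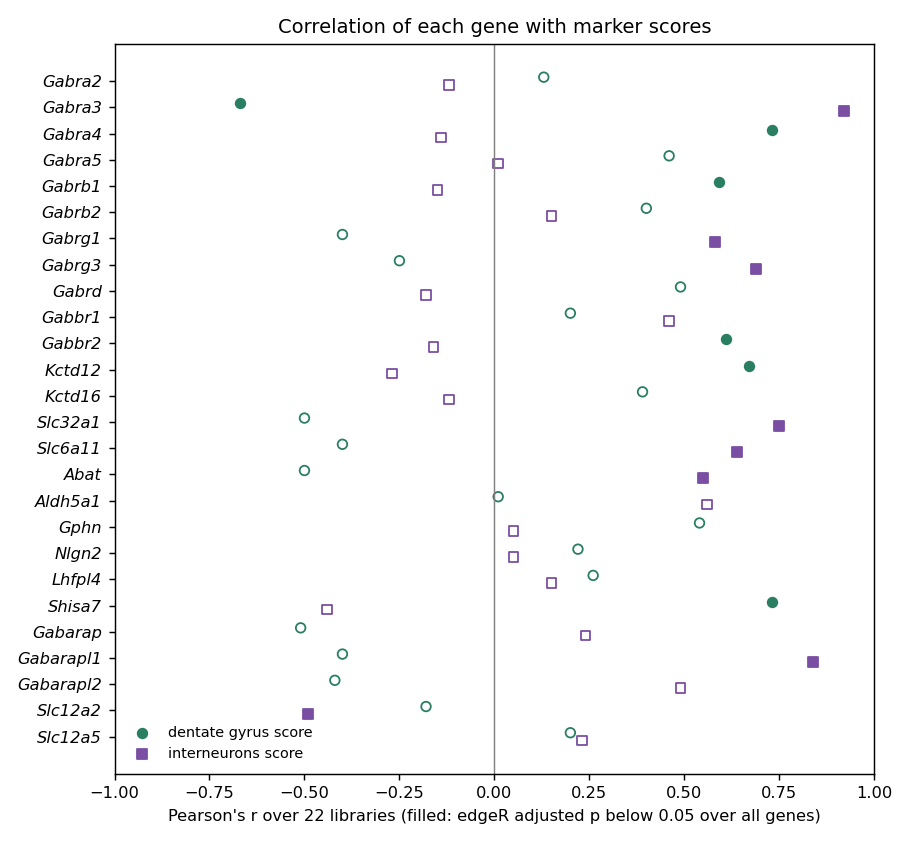
Pearson's r of each of the 26 tested genes with the dentate gyrus score (circles) and the interneuron score (squares) over 22 libraries without KO_8, filled where the edgeR slope has an adjusted p below 0.05 over all genes. Gabra3 lies at 0.92 for interneurons and -0.67 for dentate gyrus, and Shisa7 and Gabra4 at 0.73 for dentate gyrus.

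**Figure D5:**
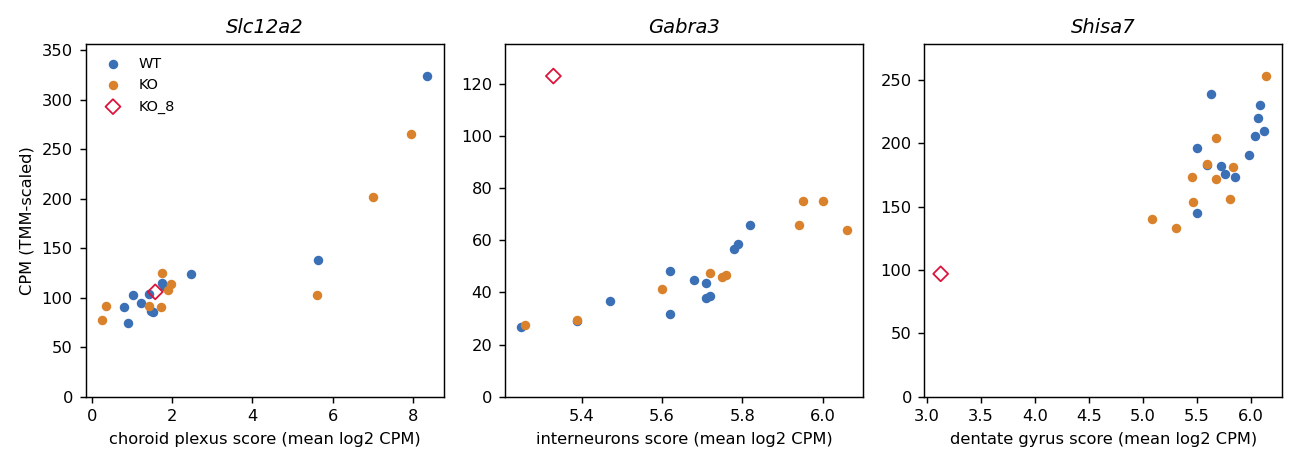
Level in CPM of Slc12a2, Gabra3 and Shisa7 against the choroid plexus, interneuron and dentate gyrus scores (mean log2 CPM of the markers), 1 point per library, WT in blue, KO in orange and KO_8 as an open diamond. Slc12a2 is high, at 202 to 324 CPM, in the 3 libraries with the highest choroid plexus scores, and Gabra3 in KO_8 (123 CPM) lies off the trend of the other libraries.

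A description of 4 pairs of these genes across the 22 libraries follows. The pairs were chosen after values were seen, from neighbours on a chromosome and partners in a dimer, other neighbours such as Gabra2 with Gabra4 were not computed, and no test is given. Gabra4 and Gabrb1 had r = 0.66 and rho = 0.61, with r = 0.51 without the 2 farthest libraries, 0.55 within WT, 0.82 within KO and 0.35 with KO_8. Gabbr1 and Gabbr2, the obligate partners of the GABA-B receptor, had r = 0.65 and rho = 0.64, with 0.72, 0.72, 0.55 and 0.55 in the same order. Gabra2 and Gabrg1 had r = 0.01 and rho = 0.12, with r = 0.36 without the 2 farthest libraries, -0.24 within WT, 0.38 within KO and -0.38 with KO_8. Gabra5 and Gabrg3, neighbours on chromosome 7 within 0.79 Mb, had r = 0.27 and rho = 0.20, with 0.34, 0.02, 0.66 and -0.62 in the same order. Both genes of a pair were measured in the same libraries and share their scaling.

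Other genes of the pathway were examined from a second list of 43, which holds the GABA-synthesising enzymes, further receptor subunits, trafficking and scaffold proteins, glycine receptor and transport genes, regulators of the chloride transporters, chloride channels, carbonic anhydrases, enzymes and carriers of glutamine, and potassium channels opened by GABA-B receptors. Of these, 41 were in the table and 35 passed the filter. None passed the threshold with KO_8 or without it (edgeR), 0 did by DESeq2 or voom, and at an unadjusted p below 0.05 there were 3 with KO_8, 1 higher and 2 lower in KO, against 5.74% of all tested genes. Without KO_8 there were 2, both lower, against 4.1%. There were 6 without any 1 of KO_6, KO_21 or KO_22, against 7.12%, 5.67% and 11.3% of all tested genes in that order. There were 7 of 36 without KO_8 and the choroid plexus libraries (8.05%), and 8 with voom (17.4%). The 3 were Mdga1, which restrains neuroligin binding at synapses (log2 fold change -0.31, SE 0.108), Kctd8, an auxiliary GABA-B subunit (0.49, SE 0.209), and Trak2, a kinesin adaptor that binds GABA-A receptors (-0.16, SE 0.0729), each with an edgeR adjusted p of 0.782. Mdga1 ran from 62.3 to 123 CPM in WT (83.0 ± 16.2, SD, n = 12) and from 52.0 to 93.2 CPM in KO without KO_8 (67.6 ± 13.2, SD, n = 10), with 58.6 CPM in KO_8. Trak2 ran from 194 to 242 CPM in WT and from 195 to 212 CPM in KO without KO_8, with 113 CPM in KO_8, and Kctd8 from 2.79 to 6.37 CPM and from 2.97 to 8.09 CPM, with 11.9 CPM in KO_8. All 3 overlapped between genotypes. Without KO_8 the log2 fold change of Kctd8 was 0.34 (SE 0.185, edgeR unadjusted p = 0.0778) and that of Trak2 -0.10 (SE 0.0383, edgeR unadjusted p = 0.0197). For Mdga1 the log2 fold change was -0.29 without KO_8 (SE 0.111, edgeR adjusted p = 0.967). Gad1 and Gad2, which make GABA, had means of 341 ± 57.3 and 151 ± 46.2 CPM in WT (SD, n = 12) and 343 ± 50.4 and 148 ± 29.1 CPM in KO without KO_8 (SD, n = 10). In KO_8, Gad2 was at 380 CPM, above all others, and Gad1 at 341 CPM, within their range.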

How the data were processed

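Gene-level estimated counts of all 23 libraries were deposited by the authors as 1 table. The submitters' processing notes name bcl2fastq, STAR and the build mm10; the counting program, its use of strand and the annotation release are not given in the sources used here. Columns were matched to samples by library name, with 0 left unmatched. Between 24.57% and 27.15% of non-zero values per library were fractional, so counts were rounded to whole numbers. Symbols were found for 98.8% of identifiers. Positions and exon lengths come from GENCODE M21 on GRCm38, and similar transcripts from blastn at 90% identity or more over at least 200 bases. No library repeated another of its genotype (smallest chi-square over its degrees of freedom, 7.3).

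Genotype was tested with edgeR 4.0.16 in R 4.3.3 (filterByExpr, TMM, robust quasi-likelihood F test), and adjusted p below 0.05 over 15828 genes was the threshold. The analysis scripts were tested on simulated data. Slopes on marker scores used the same fit over all genes of 22 libraries, and this replaced the planned adjustment over the 52 relations alone. Standard errors of edgeR fold changes and slopes were derived from the estimate and its F statistic. Log2 CPM used a prior count of 2. Correlations with scores were tested by two-sided permutation with 100000 resamples (numpy 2.4.6), and these p-values were not adjusted. Alternatives were RLE, DESeq2 1.42.0, limma 3.58.1 voom with quality weights, 2 other filters and left-out libraries. Every one of the 27 genes is named; full values are given for those with unadjusted p below 0.05, those where KO_8 is at least 1.5-fold outside the other libraries, and the highest and lowest per length, and of the second list the 3 with the smallest p. Members and lists were chosen with earlier results of these data known.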

Additional observations from a re-analysis of the deposited data

How the results depend on the processing

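No paired analysis was possible because no replicate number occurs in both genotypes. In all 30 alternatives 0 of the 27 genes and 0 of the second list were called. The count of all genes called, 2 in the main setting, was 1 without the libraries rich in choroid plexus markers, 4 with DESeq2, 5 with voom, 1 with a filter on a mean of 50 counts, and 2 to 3 with each library left out. Genes of the 27 with an unadjusted p below 0.05 numbered 2 in the main setting, 3 without the choroid plexus libraries (9.14% of all genes), 1 without these and KO_8 (8.05%), 1 with DESeq2 (6.17%), 4 with voom (17.4%), 1 with no filter (6.01%), and 0 to 6 with each library left out; 6 was without KO_22 (Gabra3, Gabrb2, Kctd12, Slc6a11, Shisa7 and Gabarap), where 11.3% of all genes had such a p. For the second list such genes numbered 3 in the main setting, 6 without the choroid plexus libraries, 5 with DESeq2, and 2 to 6 with each library left out. The median log2 fold change was -0.007 without the choroid plexus libraries, -0.025 with voom, and -0.015 to 0.019 with each library left out. With KO_8 included, 17 genes in place of 6 followed the dentate gyrus score (33.6% of all genes; 10 with Calb2 left out of it, without KO_8, an alternative chosen after seeing the data) and 2 in place of 8 the interneuron score (9.48%).

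Of 780 single-gene estimates under alternatives, 19 changed sign, in 8 genes, none of them called. Nlgn2 went to -0.008 without the choroid plexus libraries, -0.041 without these and KO_8, and -0.026 with voom, and Lhfpl4 to -0.009, -0.077 and -0.056. Without these and KO_8, Kctd16 went to 0.019 and Gabarapl1 to 0.013 (0.015 with voom). With each library left out, Gabrb1 ran from -0.079 to 0.006, Kctd16 from -0.175 to 0.027, Slc32a1 from -0.014 to 0.273, Lhfpl4 from -0.024 to 0.048, Slc12a2 from -0.13 to 0.29 and Slc12a5 from -0.048 to 0.006. The cause was not tested. Gabre, with 152 counts over 22 libraries, did not pass the main filter on low counts.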
